A study of Mus musculus with 6 samples.

Results

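The translation initiation and elongation factors of the mouse were examined as 1 gene family in intestinal RNA from mice with and without deletion of Myc. Members were all protein-coding genes of GENCODE M21 whose symbol begins with Eif1 to Eif6 or with Eef1 or Eef2 and continues only in the letters and digits of a factor, subunit, kinase, binding protein or methyltransferase name. The rule found 67 of the 47643 genes in the count table, 55 of them Eif genes and 12 Eef genes. It used no measured value. Of these 67 members, 63 passed the filter on low counts and were tested. Eef1a2, Eef1akmt3, Eif4e1b and Eif5a2 did not pass it, and Eif4e1b had no count in any library.

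The samples were 6 libraries of polyadenylated RNA from male C57BL/6 mice aged 7 to 8 weeks, all given tamoxifen and a high-fat diet with 60% fat for 2 weeks. The 3 control libraries carried the floxed Myc genotype, Mycfl/fl. The other 3 libraries carried the genotype MycΔIE, ERT2 and are called Myc-deleted here. The labels do not say which promoter drives the recombinase or whether the controls carry one, so loss of Myc and recombinase activity cannot be told apart. They also do not say that each library came from a separate mouse. If some did not, the p-values measure only the spread between these libraries, which may be technical.

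Translation of a messenger RNA starts when eIF2, bound to GTP, brings the initiator transfer RNA to the small ribosomal subunit. eIF3, the largest of the initiation factors, holds that complex together, while eIF4E, eIF4G and the helicase eIF4A, together called eIF4F, bring in the capped messenger. During elongation eEF1A delivers each aminoacyl transfer RNA, the eEF1B complex recharges eEF1A with GTP, and eEF2 moves the ribosome to the next codon. Many messengers of the elongation factors and ribosomal proteins begin with a run of pyrimidines, the terminal oligopyrimidine (TOP) motif, through which mTOR controls their translation. The MYC protein binds with its partner MAX to the E-box CACGTG, and genes of ribosome production and translation are among its known targets. The renewing intestinal epithelium makes protein at a high rate.

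Library totals ranged from 9956938 to 11328693 expected counts, and 3 counts came to 0.259 to 0.307 CPM, the depth-normalised count used below. Myc itself (ENSMUSG00000022346.14, chromosome 15) stood at 5.86, 6.05 and 6.03 CPM in control libraries 1, 2 and 3 and at 3.29, 4.37 and 5.81 CPM in Myc-deleted libraries 1, 2 and 3. Myc-deleted library 3 lay close to the controls, and its label could therefore not be checked by this gene. The difference missed the threshold (log2 fold change -0.41 ± 0.22 SE, edgeR adjusted p = 0.318; two-sided exact permutation p = 0.1, the smallest that 3 against 3 can give). The tissue is intestine in all labels except the extraction protocol, which speaks of liver. Summed over 7 epithelial markers of the intestine the libraries held 16500 to 18310 CPM, against 2.88 to 5.82 CPM for 6 hepatocyte markers. Of these, Alb was lower, at 2.61 ± 0.667 CPM in controls against 0.582 ± 0.433 CPM (log2 fold change -2.15 ± 0.52 SE, edgeR adjusted p = 0.0326), and it kept its call only without Myc-deleted library 1. The part of hepatocyte RNA in the member values was not tested. The 6 smooth muscle markers summed to 91.8 CPM in control library 2 and to 15.9 to 28.7 CPM in the other 5 libraries, and with edgeR none of them passed the threshold between the groups (3 at an unadjusted p under 0.05, and 1 called lower with DESeq2). Immune markers summed to 394 to 417 CPM in controls and 379.8 to 437.9 CPM in Myc-deleted libraries, and the 5 enteric neuron and glia markers to at most 1.21 CPM. Markers of cycling cells summed to 155 to 175 CPM in controls and 135 to 171 CPM in Myc-deleted libraries. With edgeR 0 of 10 immune and 0 of 7 cycling markers passed the threshold (2 and 1 at an unadjusted p under 0.05, and 0 with DESeq2 or limma voom), and the enteric markers were too low to be tested.

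In the Myc-deleted libraries the mRNAs of Eef1a1, Eef1b2, Eef1g and Eef2 and of 7 of the 14 eIF3 genes were lower, while most of the other initiation factors did not pass the test. Of the 63 tested members, 13 were lower (20.6%) and 2 were higher at an edgeR quasi-likelihood adjusted p under 0.05. Over all 12720 tested genes 3.73% were lower, 4.22% were higher and 7.95% were one or the other. The members that fell were Eef1a1, Eef1b2, Eef1g, Eef2, Eif3a, Eif3e, Eif3f, Eif3h, Eif3i, Eif3k, Eif3l, Eif4b and Eif4ebp3, and those that rose were Eif1ad and Eif2ak2. At an unadjusted edgeR p under 0.05 the counts were 14 lower and 4 higher, which adds only Eif2a, Eif2b5 and Eif4enif1. In eIF2, eIF2B, eIF4A, eIF4E, eIF4G and the group of eIF5, eIF5A, eIF5B and eIF6, 0 genes passed the threshold with edgeR, DESeq2 or limma voom. The median log2 fold change over the 63 members was -0.05, against -0.00212 over all tested genes, and it was -0.00492 over the 48 members that did not pass the threshold. Without control library 3 or Myc-deleted library 3 the median over the members was -0.09. Estimates were below 0 in 38 of 63 members, against 50.2% of all tested genes. The 2 groups did not overlap, with the Myc-deleted libraries lower, in 18 members, while 13.7% of all tested genes had that pattern. They did not overlap in the opposite direction in 6 members, against 14.0% of all tested genes.

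**Figure D1:**
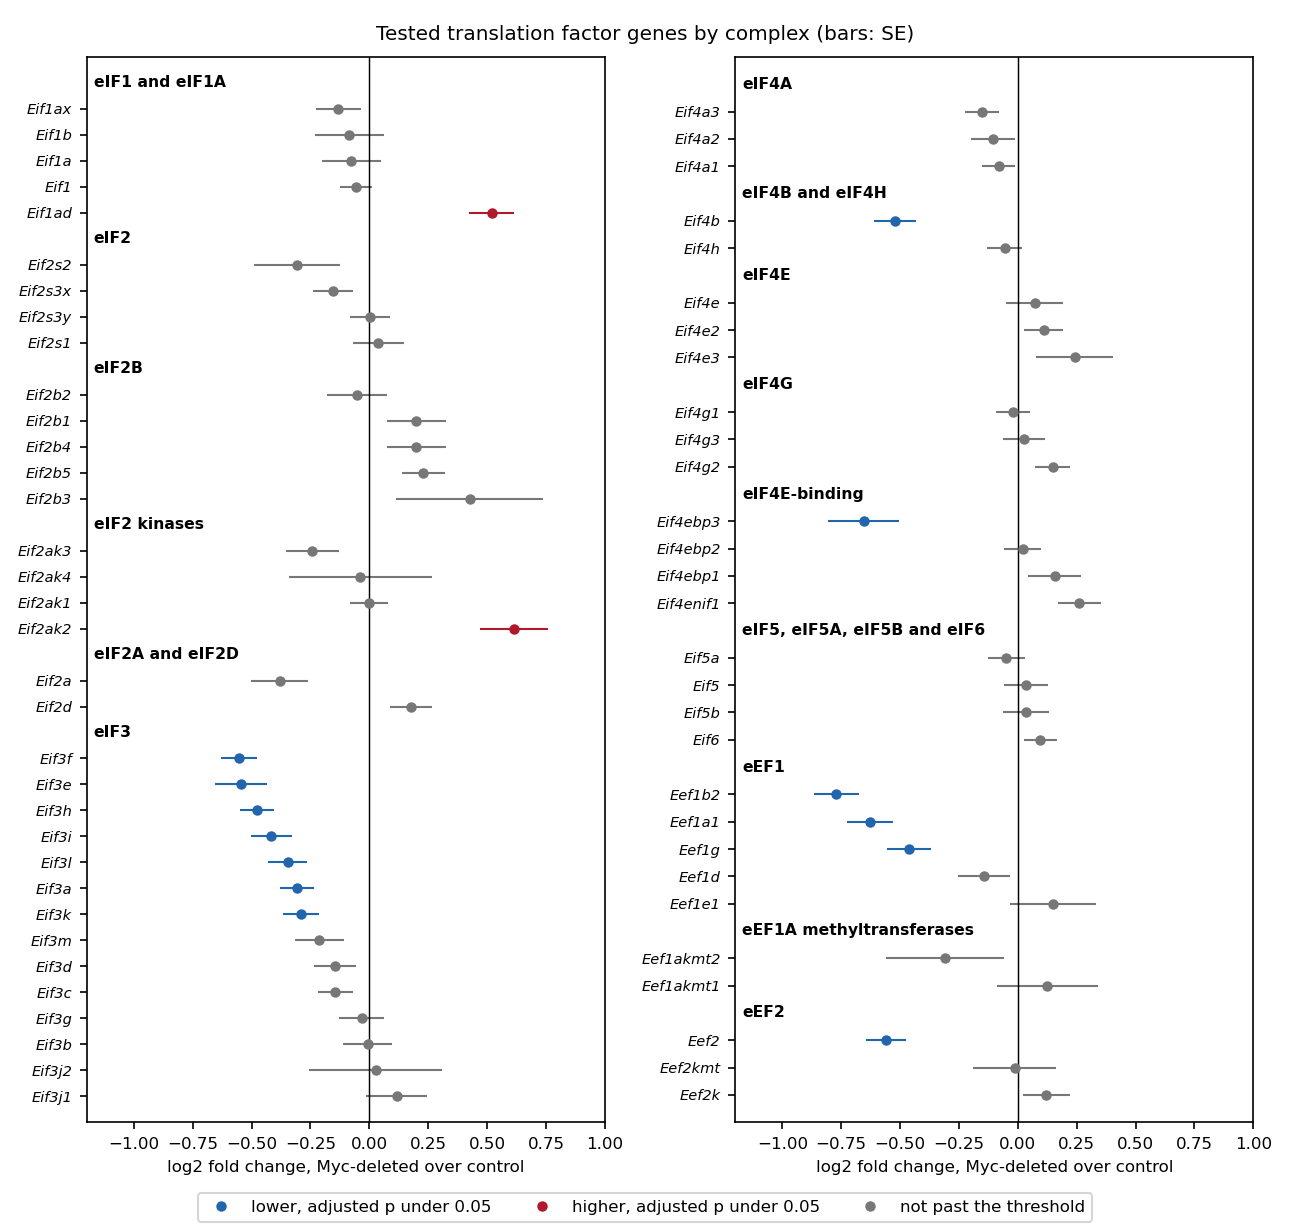
Log2 fold change (horizontal axis, Myc-deleted over control, 3 libraries each) of the 63 tested members, grouped by complex, with bars of 1 SE. Points past the threshold on the low side lie in eEF1, eEF2, eIF3, eIF4B and the eIF4E-binding proteins, and the 2 on the high side are Eif1ad and Eif2ak2.

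In sum the 67 members held 11955, 12456 and 11386 CPM in control libraries 1, 2 and 3 and 9182, 9477 and 9603 CPM in Myc-deleted libraries 1, 2 and 3. The groups did not overlap, and the mean of the Myc-deleted libraries was 0.79 times that of the controls. Eef1a1 and Eef2 made up most of the missing counts, with 5913 ± 376 CPM together in the controls and 3894 ± 92.4 CPM in Myc-deleted libraries (SD, n = 3 each). The 52 members without a call summed to 4374 ± 67.5 and 4314 ± 174 CPM. In bulk tissue, fewer cells of a type and less RNA per cell cannot be told apart.

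Among the elongation factors, 3 of 5 tested eEF1 genes and the translocase gene itself fell. Eef1a1 encodes the GTPase that carries aminoacyl transfer RNA to the ribosome (ENSMUSG00000037742.14, chromosome 9, 78478449 to 78489151, GRCm38, minus strand). It stood at 3824, 4064 and 3461 CPM in control libraries 1, 2 and 3 and at 2343, 2528 and 2472 CPM in Myc-deleted libraries 1, 2 and 3. All 3 Myc-deleted libraries lay below the lowest control, and the level fell by 35.3% (log2 fold change -0.63 ± 0.10 SE, edgeR adjusted p = 0.00471). Eef1a2, the paralogue known from muscle and neurons, had at most 0.183 CPM in any library, so nearly all eEF1A mRNA counted in this tissue came from Eef1a1.

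Eef1b2 encodes the subunit of eEF1B that exchanges GDP for GTP on eEF1A (ENSMUSG00000025967.16, chromosome 1, 63176825 to 63180486, plus strand). Its level was 238, 257 and 206 CPM in controls and 128, 143 and 140.2 CPM in Myc-deleted libraries. This was the largest decrease of any member past the threshold, for which the level fell by 41.4% (log2 fold change -0.77 ± 0.09 SE, edgeR adjusted p = 0.00161) and no overlap between the groups. Eef1g, which encodes the structural subunit that anchors the exchange factor (chromosome 19), went from 308, 329 and 279.7 CPM to 199, 231 and 235 CPM. Its groups did not overlap either (log2 fold change -0.46 ± 0.09 SE, edgeR adjusted p = 0.0143), but the call was lost without control library 1 (adjusted p = 0.0513) or control library 2 (0.0706). The other exchange subunit, encoded by Eef1d, showed 69.4, 68.5 and 62.5 CPM against 50.8, 61.5 and 69.1 CPM. Its groups overlapped, since Myc-deleted library 3 reached the level of the controls, and it missed the threshold (log2 fold change -0.14 ± 0.11 SE, edgeR adjusted p = 0.501). Eef1e1 encodes a protein of the aminoacyl transfer RNA synthetase complex that shares only part of the eEF1 name, and it stood at 4.46 ± 0.120 and 4.95 ± 0.471 CPM (edgeR adjusted p = 0.686).

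Eef2 encodes the translocase (ENSMUSG00000034994.9, chromosome 10, 81176631 to 81182498, GRCm38, plus strand). It was counted at 2108, 2215 and 2066 CPM in controls and 1483, 1471 and 1384 CPM in Myc-deleted libraries. The groups were far apart relative to their spread (log2 fold change -0.56 ± 0.08 SE, edgeR adjusted p = 0.00387). The genes for enzymes that modify the 2 GTPases did not pass the test. Eef2k, the kinase that inhibits eEF2, had a log2 fold change of 0.12 ± 0.10 SE (edgeR adjusted p = 0.536). Eef2kmt, a lysine methyltransferase for eEF2, stood at -0.01, and the eEF1A methyltransferase genes Eef1akmt1 and Eef1akmt2 stood at 0.13 and -0.31 with SEs of 0.21 and 0.25. These methyltransferase genes had at most 6.83 CPM in any library.

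The start regions of the factors that fell in every leave-one-out run are printed here because the TOP motif is read at the first base of the messenger. Each run below holds 20 bases before and 25 bases from the RefSeq start (GRCm38.p6), on the gene's strand, with the longest run of C and T in capitals (the first where runs tie in length, as in Eef1b2 and Eif4b, which each hold an equal run after the start). Eif2s3x, which did not pass the threshold, is added because a run of at least 5 pyrimidines also begins at its start. Eif2b5, Eif2ak4 and Eif2s2, also without a call, and Eif3l, which fell, have a start inside their longest run too. They are not printed, and from the start onward they had 4, 4, 2 and 3 pyrimidines. The whole run of Eif2b5 was 21 bases long. Eif3h, also called in every run, had no window in the table and is named only.
Eef1a1, chr9:78481700-78481744, minus strand: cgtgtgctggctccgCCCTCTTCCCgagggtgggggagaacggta
Eef1b2, chr1:63176811-63176855, plus strand: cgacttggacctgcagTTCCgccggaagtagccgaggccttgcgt
Eef2, chr10:81176611-81176655, plus strand: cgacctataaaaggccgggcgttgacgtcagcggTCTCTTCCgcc
Eif3f, chr7:108934395-108934439, plus strand: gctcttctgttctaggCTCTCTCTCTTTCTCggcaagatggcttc
Eif4b, chr15:102073753-102073797, plus strand: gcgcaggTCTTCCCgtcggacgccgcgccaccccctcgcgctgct
Eif2s3x, chrX:94212627-94212671, minus strand: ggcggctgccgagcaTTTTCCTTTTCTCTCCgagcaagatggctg
From the annotated start onward, Eif3f and Eif2s3x each had 11 pyrimidines in a row and Eef1a1 had 5. In Eef2 the capital run lay after the annotated start, and in Eef1b2 and Eif4b the first of the equal runs lay before it, so that none of these 3 starts lay in a capital run. The starts were not measured in these data, and a start that is used some bases away would change this reading.

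RefSeq windows of 300 bases (250 before and 50 after the start) were matched by symbol for 51 of 67 members. A pyrimidine run of at least 5 bases beginning at the annotated start was found in 2 of the 8 lower members with a window, Eef1a1 and Eif3f, and in 1 of the 39 tested members without a call, Eif2s3x. The share was 4.64% of all protein-coding genes with a window and 26.2% of the cytosolic ribosomal protein genes. Either C or T was accepted as the first base, which was T in Eef1a1 and C in Eif3f and Eif2s3x. A match is a description of the letters and does not show that a motif is used.

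The same windows were searched for the E-box CACGTG, which reads alike on both strands. It was found in 12 of 51 members (23.5%), against 8.91% of all 17491 protein-coding genes with a window. Of 65 cytosolic ribosomal protein genes with a window 6 held it (9.23%), although 75 of the 83 tested genes of that group fell. Among the lower members 4 of 8 held it, and among tested members without a call 7 of 39 did (17.9%). Neither higher member, Eif1ad or Eif2ak2, held it. The 4 in lower members are shown with 12 bases on either side, on the gene's strand in GRCm38.p6, with the E-box in capitals.
Eef2, chr10:81176576-81176605, plus strand, 43 bases before the start: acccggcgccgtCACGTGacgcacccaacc
Eif3f, chr7:108934335-108934364, plus strand, 68 bases before the start: caagatatgattCACGTGgtataaatttag
Eif3k, chr7:28981915-28981944, minus strand, 44 bases before the start: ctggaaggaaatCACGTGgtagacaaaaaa
Eif3a, chr19:60790654-60790683, minus strand, from position 23 after the start: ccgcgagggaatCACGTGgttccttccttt
The tested members without a call that held an E-box were Eef2k, Eif1b, Eif4a1, Eif4e, Eif4g1, Eif4h and Eif5a. Eif5a2, which was not tested, held it as well. Eif4e and Eif4g1, which encode the cap-binding protein and the scaffold of eIF4F, held 2 each and had log2 fold changes of 0.07 and -0.02. Eif5a also held 2, over several windows, and had a log2 fold change of -0.05. A gene with several windows was counted if any of them held an E-box. An E-box in the window was thus present in members that fell and in members that did not pass the test. No binding of MYC was measured here.

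Of the 14 eIF3 genes 7 fell and none rose, with a median log2 fold change of -0.25 and 12 of 14 estimates below 0. Together the 14 genes summed to 1226 ± 43.8 CPM in controls and 999.8 ± 39.6 CPM in Myc-deleted libraries (SD, n = 3 each). The count rested on all 6 libraries, since it was 2 without control library 1 or control library 2 and 4 without any of the other 4 libraries. Eif3f and Eif3h kept their calls in all 6 of these runs.

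Eif3f encodes a subunit with an MPN domain (ENSMUSG00000031029.6, chromosome 7, 108934417 to 108942951, plus strand). Its level was 215, 237 and 208 CPM in control libraries 1, 2 and 3 and 151, 152 and 146 CPM in Myc-deleted libraries 1, 2 and 3. The Myc-deleted libraries varied little (SD 3.18 CPM) and all lay below the lowest control (log2 fold change -0.55 ± 0.08 SE, edgeR adjusted p = 0.00245). Eif3h, the other MPN subunit (ENSMUSG00000022312.10, chromosome 15, 51786558 to 51865523, minus strand), went from 133, 146 and 136 CPM to 99.1, 102 and 96.7 CPM. Again no library of one group reached the other (log2 fold change -0.48 ± 0.07 SE, edgeR adjusted p = 0.00422).

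Eif3e encodes a PCI-domain subunit known also as Int6 (chromosome 15). It showed 59.4, 59.3 and 50.4 CPM in the controls against 37.1, 34.5 and 44.3 CPM, with no overlap (log2 fold change -0.55 ± 0.11 SE, edgeR adjusted p = 0.0163). That call was lost without control library 1 (adjusted p = 0.0608), control library 2 (0.0711) or Myc-deleted library 2 (0.0561). Eif3i encodes a WD-repeat subunit of the part of eIF3 that reaches towards the decoding site (chromosome 4). It went from 68.5, 74.8 and 67.3 CPM to 47.8, 54.2 and 55.9 CPM (log2 fold change -0.42 ± 0.09 SE, edgeR adjusted p = 0.0186), and the call was lost without control library 1 (0.0508) or control library 2 (0.0833).

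The remaining 3 eIF3 genes that fell did so by less and passed the threshold narrowly. Eif3l, a PCI subunit, stood at 77.4, 83.7 and 81.0 CPM in controls and 58.2, 68.3 and 64.0 CPM in Myc-deleted libraries (log2 fold change -0.35 ± 0.08 SE, edgeR adjusted p = 0.0324). Eif3a, the largest subunit and the scaffold of the complex, stood at 96.4, 93.6 and 99.6 CPM and at 79.0, 75.1 and 80.2 CPM (log2 fold change -0.31 ± 0.07 SE, edgeR adjusted p = 0.0293). Eif3k, a small subunit at the edge of the complex, stood at 91.0, 92.9 and 92.7 CPM and at 69.7, 78.5 and 77.8 CPM (log2 fold change -0.29 ± 0.08 SE, edgeR adjusted p = 0.0462). In all 3 genes the groups were separate. The calls of Eif3a and Eif3k were lost whichever library was left out (adjusted p = 0.0514 to 0.120 and 0.0670 to 0.139), and Eif3l kept its call only without Myc-deleted library 2 (0.0428 there, up to 0.124). Eif3k also missed the threshold with DESeq2 (adjusted p = 0.0703) and without the filter on low counts (0.0673).

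The 7 eIF3 genes without a call included Eif3c, a core PCI subunit, at 171, 192 and 175 CPM against 159, 166 and 161 CPM. Its groups did not overlap, but the difference was small (log2 fold change -0.15 ± 0.07 SE, edgeR adjusted p = 0.289). Eif3m, the last PCI subunit, had a log2 fold change of -0.21 ± 0.10 SE (edgeR adjusted p = 0.276), and Eif3d, a subunit that can bind the cap, one of -0.15 ± 0.09 SE (0.377). Eif3b and Eif3g, which encode RNA-recognition-motif subunits that work with Eif3i, stood at -0.01 ± 0.10 and -0.03 ± 0.10. The paralogues of the loosely attached subunit eIF3j, Eif3j1 and Eif3j2, were counted at 21.1 ± 0.912 and 22.9 ± 4.03 CPM and at 3.91 ± 0.772 and 3.998 ± 1.37 CPM, in controls and Myc-deleted libraries in turn. Both pairs of groups overlapped.

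Eif3a, Eif3c, Eif3e, Eif3f, Eif3h, Eif3k, Eif3l and Eif3m encode the 8 PCI and MPN subunits that form the structural core of eIF3. All 8 estimates were below 0, 6 passed the threshold and the median log2 fold change was -0.33. Of the 6 other genes only Eif3i passed it, and their median was -0.02. This split was made after the values were seen, and the difference between the 2 subsets was not tested. With 1 library left out, 2 or 3 of the 8 core genes passed the threshold in each of the 6 runs.

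**Figure D2:**
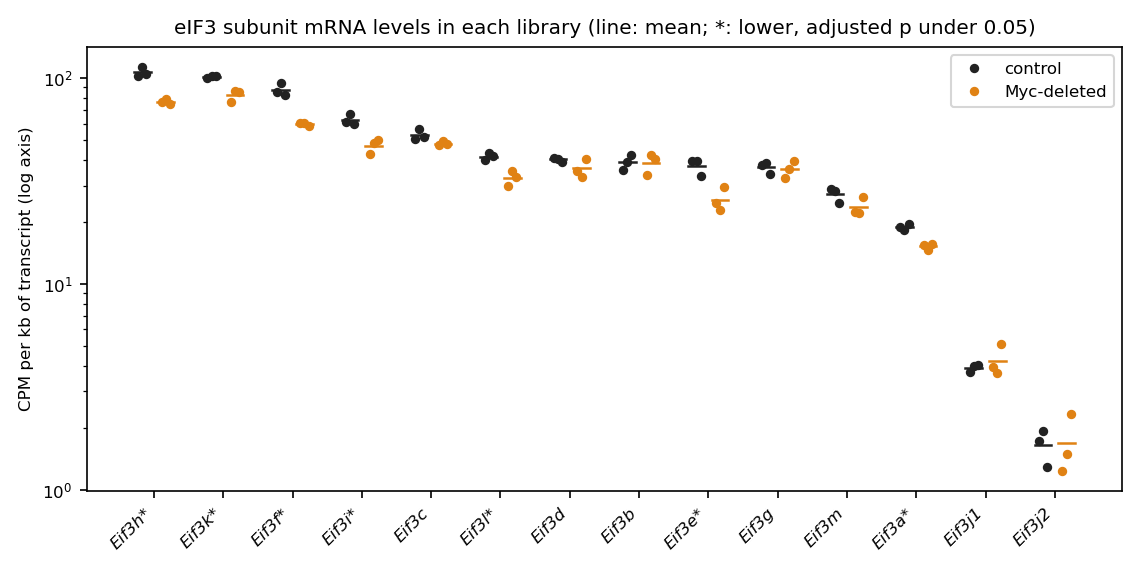
Level of each eIF3 gene in each of the 3 control and 3 Myc-deleted libraries, in CPM per kb of the longest coding transcript on a log axis, with a line at each group mean and a star at the 7 genes past the threshold. In the starred genes all Myc-deleted points lie below the control points, while the 2 groups interleave for Eif3b and Eif3g.

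In the eIF4 family the genes of the cap-binding complex itself did not pass the test, and 2 associated genes fell. Eif4b encodes the protein that stimulates the helicase eIF4A (ENSMUSG00000058655.8, chromosome 15, 102073773 to 102097173, plus strand). It stood at 255, 267 and 227 CPM in controls and 189, 169.95 and 162 CPM in Myc-deleted libraries. The lowest control lay above the highest Myc-deleted library (log2 fold change -0.52 ± 0.09 SE, edgeR adjusted p = 0.00723), and the call held in all 6 leave-one-out runs (adjusted p up to 0.0401). Eif4h, a smaller relative that stimulates the same helicase, was counted at 385 ± 18.5 and 370.1 ± 14.4 CPM (log2 fold change -0.06 ± 0.07 SE, edgeR adjusted p = 0.716).

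The helicase genes themselves did not pass the test. Eif4a1, the more abundant form per length, stood at 330.3, 340.5 and 313 CPM and at 303, 309 and 318 CPM, with overlapping groups (log2 fold change -0.08 ± 0.07 SE, edgeR adjusted p = 0.559). Its paralogue Eif4a2 stood at 147, 162 and 133 CPM and at 129, 134 and 149 CPM (log2 fold change -0.10 ± 0.09 SE, adjusted p = 0.568). Both paralogues of the helicase thus overlapped between the groups. Eif4a3, which belongs to the exon junction complex and not to eIF4F, lay at 56.6 to 57.9 CPM in controls and at 51.2 to 51.8 CPM in Myc-deleted libraries. These groups were tight and did not overlap, but a difference of this size missed the threshold (log2 fold change -0.15 ± 0.07 SE, edgeR adjusted p = 0.245).

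The scaffold gene Eif4g1 had 306, 316 and 331 CPM in controls and 316, 319.9 and 303 CPM in Myc-deleted libraries. Eif4g2, which encodes a scaffold without the eIF4E-binding part and serves cap-independent initiation, had 411, 413 and 409 CPM and then 437, 444 and 486 CPM. All 3 Myc-deleted libraries lay above the controls for Eif4g2, yet it missed the threshold (log2 fold change 0.15 ± 0.07 SE, edgeR adjusted p = 0.277). Eif4e, which encodes the cap-binding protein, had 34.3, 37.0 and 27.5 CPM against 33.2, 32.4 and 38.3 CPM (log2 fold change 0.07 ± 0.12 SE, edgeR adjusted p = 0.786). Eif4e2, a cap-binding protein that can repress translation, was the most abundant of its family per length and stood at 66.1 ± 2.86 and 71.3 ± 5.11 CPM (adjusted p = 0.487).

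Of the 4 genes for eIF4E-binding proteins, Eif4ebp3 fell. Eif4ebp3 encodes one of the small repressors that hold eIF4E away from eIF4G (chromosome 18). It stood at 29.4, 37.6 and 36.7 CPM in controls and 27.1, 19.9 and 18.9 CPM in Myc-deleted libraries. Myc-deleted library 1 came within a few CPM of control library 1, without overlap (log2 fold change -0.65 ± 0.15 SE, edgeR adjusted p = 0.0265). The call was lost without control library 2 (adjusted p = 0.113), control library 3 (0.0851), Myc-deleted library 2 (0.0887) or Myc-deleted library 3 (0.0693). Its exons overlap another annotated gene on the same strand, and its expected counts were not whole numbers in any library, so the level is uncertain. The better known repressor genes Eif4ebp1 and Eif4ebp2 had log2 fold changes of 0.16 ± 0.11 and 0.02 ± 0.08 and did not pass the test. Eif4enif1, which encodes the transporter that takes eIF4E into the nucleus, lay at 33.3 to 38.7 CPM in controls and 40.9 to 46.3 CPM in Myc-deleted libraries (log2 fold change 0.26 ± 0.09 SE, edgeR adjusted p = 0.120).

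None of the 4 eIF2 subunit genes passed the test. Eif2s2, which encodes eIF2 beta, was the most abundant of them per length, with 152, 186 and 166 CPM in control libraries 1, 2 and 3 and 115, 107 and 185 CPM in Myc-deleted libraries 1, 2 and 3. Myc-deleted library 3 alone lay at the level of the controls, and the other 2 lay below all of them. With all libraries the log2 fold change was -0.31 ± 0.18 SE (edgeR adjusted p = 0.369), and without Myc-deleted library 3 it was -0.60 (adjusted p = 0.00960). It passed the threshold in no other leave-one-out run, where the adjusted p reached 0.682. Myc-deleted library 3 is also the library whose level of Myc lay close to the controls, and the part of Myc in the difference was not tested. Among the members lower in every leave-one-out run, it was the lowest Myc-deleted library for Eef2, Eif3f, Eif3h and Eif4b. For Eef1a1 and Eef1b2 it was not. Eif2s1, which encodes the alpha subunit that the stress kinases phosphorylate, stood at 28.9 ± 0.595 and 29.7 ± 4.12 CPM. The gamma subunit has an X-linked and a Y-linked gene in mice. Eif2s3x was counted at 84.5, 80.5 and 73.2 CPM and then at 66.2, 73.0 and 74.9 CPM, which overlapped (log2 fold change -0.15 ± 0.09 SE, edgeR adjusted p = 0.332), and Eif2s3y had a log2 fold change of 0.00 ± 0.08 SE.

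The 5 genes of eIF2B, the exchange factor that returns eIF2 to its GTP form, had a median log2 fold change of 0.20, and none passed the test. Eif2b5, which encodes the catalytic epsilon subunit and was the most abundant of them per length, stood at 39.2, 37.5 and 42.1 CPM in controls and 41.9, 48.8 and 48.3 CPM in Myc-deleted libraries. Control library 3 and Myc-deleted library 1 overlapped (log2 fold change 0.23 ± 0.09 SE, edgeR adjusted p = 0.175). Eif2b1 and Eif2b4 lay at 0.20 ± 0.12 each, Eif2b2 at -0.05 ± 0.13 and the scarce Eif2b3 at 0.43 ± 0.31.

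Among the 4 genes of eIF2 kinases, Eif2ak2 rose. Eif2ak2 encodes PKR, the kinase that responds to double-stranded RNA and is itself induced by interferon (chromosome 17). Its level was 41.6, 30.5 and 40.2 CPM in controls and 52.6, 50.7 and 68.3 CPM in Myc-deleted libraries, with no overlap (log2 fold change 0.61 ± 0.14 SE, edgeR adjusted p = 0.0304). The call was lost without control library 2 (adjusted p = 0.117), control library 3 (0.0616) or Myc-deleted library 3 (0.0796). Eif2ak3, which encodes the kinase PERK of the endoplasmic reticulum, stood at 59.1, 61.4 and 52.4 CPM and at 56.9, 44.3 and 44.9 CPM (log2 fold change -0.24 ± 0.11 SE, edgeR adjusted p = 0.242). The genes for the heme-regulated kinase, Eif2ak1, and for the amino acid sensor GCN2, Eif2ak4, had log2 fold changes of 0.00 ± 0.08 and -0.04 ± 0.30.

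Eif2a and Eif2d encode proteins that can bring transfer RNA to the ribosome without eIF2. Eif2a stood at 26.4, 25.2 and 20.6 CPM in controls and 18.1, 17.1 and 20.3 CPM in Myc-deleted libraries. The groups did not overlap, but control library 3 and Myc-deleted library 3 nearly met, and the gene missed the threshold (log2 fold change -0.38 ± 0.12 SE, edgeR adjusted p = 0.0923). Eif2d lay at 22.7 to 24.8 CPM and 25.8 to 28.3 CPM (log2 fold change 0.18 ± 0.09 SE, adjusted p = 0.289).

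Eif1ad was the other member that rose. Its protein resembles eIF1A in sequence and takes part in the maturation of the small ribosomal subunit (chromosome 19). The controls lay at 31.7, 29.3 and 30.3 CPM and the Myc-deleted libraries at 38.5, 45.5 and 46.9 CPM, with no overlap (log2 fold change 0.52 ± 0.10 SE, edgeR adjusted p = 0.0100). It lost its call without control library 2 (adjusted p = 0.0633). Its exons overlap those of Banf1 on the opposite strand, which had a log2 fold change of 0.25 (adjusted p = 0.169), and no source used here says whether the counting used strand.

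The genes of start-site selection did not pass the test. Eif1, which encodes the factor that guards the choice of start codon, stood at 351, 356.5 and 358 CPM in controls and 342, 338 and 345 CPM in Myc-deleted libraries. The groups did not overlap, but the distance was small (log2 fold change -0.06 ± 0.07 SE, edgeR adjusted p = 0.675). Its paralogue Eif1b stood at 11.7 ± 1.83 and 10.98 ± 0.744 CPM. For eIF1A, the factor that works beside eIF1, the paralogues Eif1a and Eif1ax had log2 fold changes of -0.08 ± 0.13 and -0.13 ± 0.09.

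The group of eIF5, eIF5A, eIF5B and eIF6 was also without a call. Eif5a, whose protein carries hypusine and helps ribosomes through difficult peptide bonds, stood at 296, 291 and 293 CPM in controls and at 258, 297 and 296 CPM in Myc-deleted libraries (log2 fold change -0.05 ± 0.08 SE, edgeR adjusted p = 0.769). Its paralogue Eif5a2 was counted at 0.915 CPM or less in every library and was not tested. Eif6, whose protein keeps the ribosomal subunits apart, lay at 274 to 279.6 CPM in controls and 284 to 311 CPM in Myc-deleted libraries, a small difference without overlap (log2 fold change 0.09 ± 0.07 SE, adjusted p = 0.482). Eif5, the GTPase-activating protein for eIF2, and Eif5b, which joins the subunits, stood at 0.03 ± 0.09 and 0.04 ± 0.10.

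**Figure D3:**
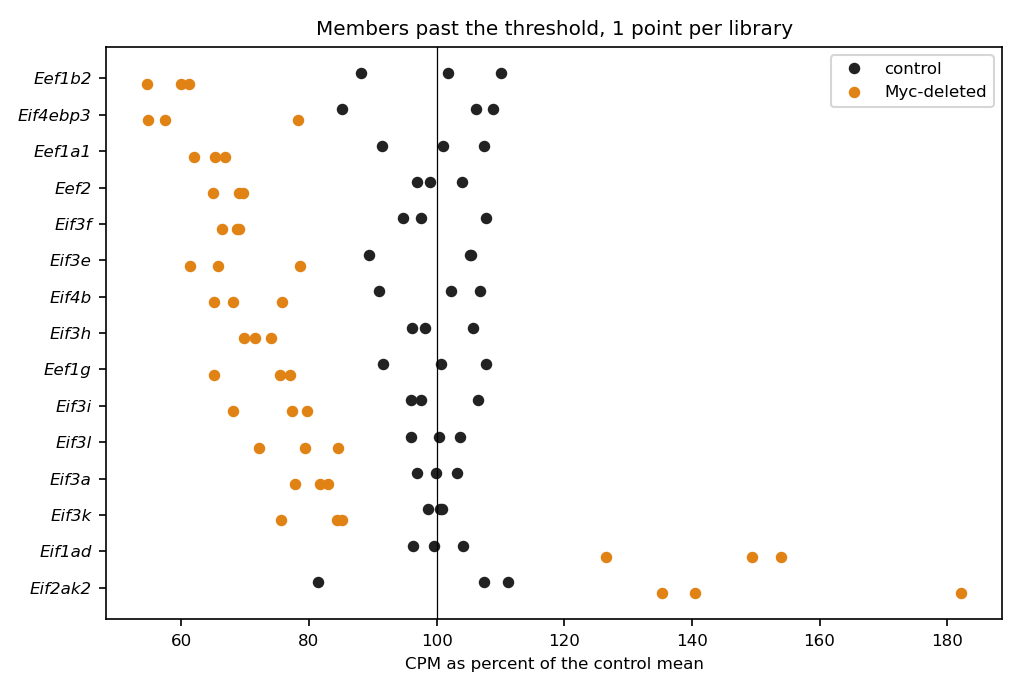
CPM of the 15 members past the threshold in each library, as a percentage of the control mean of the same gene (horizontal axis), with 1 point per library, 3 control and 3 Myc-deleted. The groups are separate in every gene, and control library 2 is the highest control in 11 of the 13 genes that fell.

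Control library 2 had the highest level in 11 of the 13 members that fell, while control libraries 1 and 3 each had it in 1. This library also stood apart in smooth muscle markers (91.8 CPM). The part of these markers in the member values was not tested. Without control library 2, 6 members were lower and 0 were higher with edgeR, in place of 13 and 2, and at an unadjusted p under 0.05 there were 14 and 2. Without control library 1, 7 were lower and 2 higher. The members lower in all 6 leave-one-out runs were Eef1a1, Eef1b2, Eef2, Eif3f, Eif3h and Eif4b, and no higher member was.

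**Figure D4:**
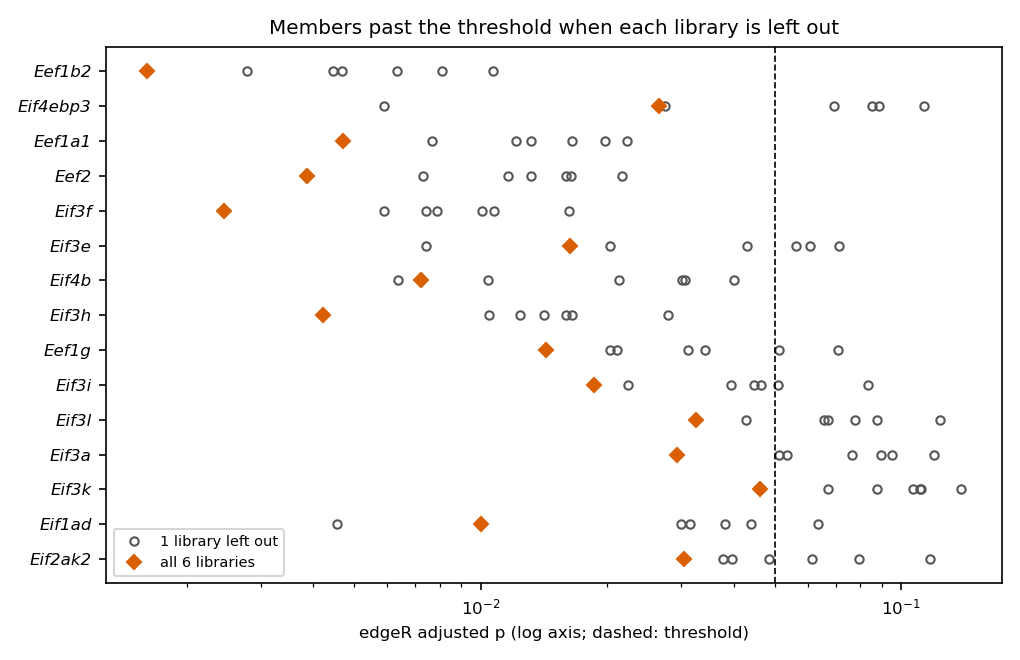
The edgeR adjusted p (horizontal log axis) of the 15 members past the threshold with all 6 libraries and with each library left out in turn, with the threshold of 0.05 as a dashed line. Eef1a1, Eef1b2, Eef2, Eif3f, Eif3h and Eif4b stay to the left of the line in every run, while every leave-one-out point of Eif3a and Eif3k lies to its right.

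The members were also read against a list of 9 factor genes whose messengers are known, from general knowledge of the field, to carry the TOP motif. The list was drawn up with earlier results known and is not independent evidence of direction. It does not hold Eif2s3x, Eif2b5 or Eif2ak4, whose annotated starts lie in a pyrimidine run and which had no call. Nor does it hold Eif3l, which fell and also has its start in such a run. Of the 5 list members printed above, only Eef1a1 and Eif3f have an annotated start in such a run. The starts in use were not measured, and Eef2 has a run shortly after its annotated start, so this does not sort the genes by motif. Of these 9 genes, Eef1a1, Eef1b2, Eef1g, Eef2, Eif3e, Eif3f, Eif3h and Eif4b fell and Eef1d did not pass the test, which gives 8 of 9 (88.9%) with a median log2 fold change of -0.55. Outside the list 5 of 54 tested members fell (9.26%) and 2 rose, with a median of -0.01. The 6 members called lower in every leave-one-out run were all on the list. The 83 tested cytosolic ribosomal protein genes, the best known TOP messengers, held 75 lower and 1 higher with a median of -0.63. They took 2.50% to 2.96% of all counts in the controls and 1.59% to 1.86% in the Myc-deleted libraries. These values bear on mRNA level only, since translation was not measured.

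Levels of different genes were compared per length, as CPM per kb of the longest annotated coding transcript, averaged over 6 libraries. Eef1a1 was the most abundant member at 1736 CPM per kb, followed by Eef2 at 579, Eif1 at 264, Eif5a at 201, Eif6 at 191 and Eif4a1 at 179.7. The median was 73.6 CPM per kb over the members that fell, 13.6 over those without a call and 12.7 over the 2 that rose. By this length Eif1, Eif5a, Eif6 and Eif4a1, which had no call, were more abundant than every lower member other than Eef1a1 and Eef2. A shorter transcript in use would raise the value of a gene such as Eef1b2 (95.7 CPM per kb over 1939 bases). Which transcripts were in use was not measured. The part of abundance in the calls was not tested. Within eIF3 the median was 43.8 CPM per kb for the 8 PCI and MPN genes and 37.4 for the other 6.

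**Figure D5:**
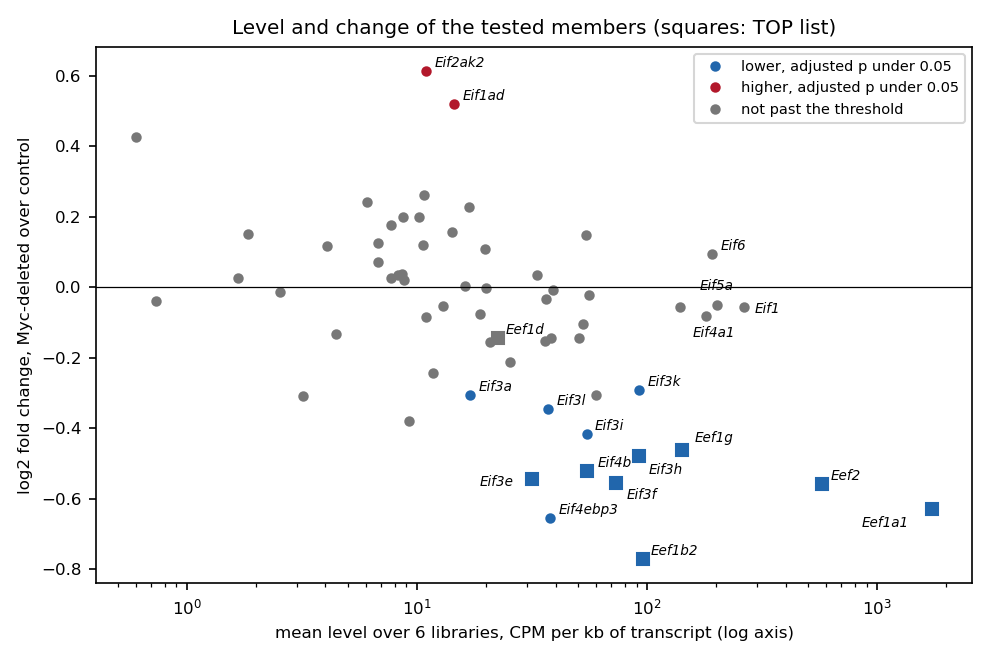
Mean level over 6 libraries (horizontal log axis, CPM per kb of transcript) and log2 fold change, Myc-deleted over control (vertical axis), of the 63 tested members, with squares for the TOP list. The squares other than Eef1d lie between -0.46 and -0.77, while Eif1, Eif5a, Eif6 and Eif4a1 lie near 0 at high levels.

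Several members share sequence with other genes, and RSEM divides such reads by estimate. Counts were whole numbers in every library for 39 of the 67 members. Among those that fell, Eif3a, Eif3f, Eif3h, Eif3i, Eif3k, Eif3l and Eif4b had whole counts throughout. Eef1a1, Eef1b2, Eef1g, Eef2, Eif3e and Eif4ebp3 had estimated shares in all 6 libraries, and their levels are less certain. The counts of Eef2 all lay close to whole numbers (21211.96 in control library 1). Of the members that rose, Eif1ad had whole counts throughout, and Eif2ak2 had estimated shares in 5 libraries. Exons of Eef1b2 overlap those of Ndufs1 on the opposite strand, which had a log2 fold change of -0.28 (edgeR adjusted p = 0.0509).

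Genes that act beside the factors were counted from lists of partners, pathways and mitochondrial factors. Over all tested genes 7.95% were called in either direction, so that 1 or 2 calls in a list this short are no result about the list. Of 15 tested initiation partners 3 fell and none rose, with a median log2 fold change of 0.04. Pabpc4, a cytoplasmic poly(A)-binding protein gene, stood at 46.7, 53.1 and 50.3 CPM in controls and 33.4, 32.1 and 35.3 CPM in Myc-deleted libraries (log2 fold change -0.57 ± 0.09 SE, edgeR adjusted p = 0.00359). Pdcd4, which encodes an inhibitor of eIF4A, had a log2 fold change of -0.71 ± 0.14 SE (adjusted p = 0.0134, and 0.0616 without control library 2). Pabpc1, the major poly(A)-binding protein gene, had one of -0.29 ± 0.07 SE (adjusted p = 0.0306), and it kept its call only without Myc-deleted library 1.

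Among 15 tested elongation partners, Tpt1 fell and Dhps rose. Tpt1, a TOP messenger whose protein binds eEF1A, went from 1613, 1653 and 1557 CPM to 1141, 1142 and 1223 CPM, without overlap (log2 fold change -0.46 ± 0.08 SE, edgeR adjusted p = 0.00837). Dhps, which encodes the first enzyme of hypusine synthesis on eIF5A, had a log2 fold change of 0.56 ± 0.14 SE (adjusted p = 0.0369) and kept its call only without control library 1. With edgeR 0 of 6 tested termination and rescue genes passed the threshold, 0 at an unadjusted p under 0.05, and 0 with DESeq2 or limma voom. Of 10 mitochondrial translation factors only Mtif3, which encodes mitochondrial initiation factor IF3, fell (log2 fold change -0.42 ± 0.11 SE, adjusted p = 0.0435), and it kept its call only without Myc-deleted library 1. The median of that list was -0.24.

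In the control pathways, 1 of 12 genes of mTOR and MNK signalling passed the test, near the 7.95% of all tested genes. Deptor, which encodes an inhibitor within mTOR complexes, stood at 30.01, 22.1 and 20.02 CPM in controls and 11.9, 12.5 and 9.41 CPM in Myc-deleted libraries (log2 fold change -1.09 ± 0.17 SE, edgeR adjusted p = 0.00470). Of 9 genes of the integrated stress response, which eIF2 kinases start, 2 rose. Trib3, a pseudokinase gene of that response, went from 12.4, 9.60 and 13.1 CPM to 21.9, 25.2 and 20.7 CPM, with no overlap (log2 fold change 0.95 ± 0.14 SE, edgeR adjusted p = 0.00334). Ddit3, which encodes the transcription factor CHOP, had a log2 fold change of 0.66 ± 0.17 SE (adjusted p = 0.0450) and kept its call only without Myc-deleted library 1. The median of the list was 0.12, and phosphorylation of eIF2 was not measured.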

How the data were processed

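RNA of 6 libraries (3 control, 3 Myc-deleted) was prepared as stranded mRNA libraries, per the labels' protocols. The authors deposited expected counts per gene without scaling between libraries. The submitters' processing notes name cutadapt, STAR, Picard, RSEM and the build mm10. Tool versions, the annotation and the use of strand in counting are not given there or in the labels. Of 47643 genes, 99.1% were matched by identifier to GENCODE M21 (GRCm38), and 44 of 67 members had the same identifier version.

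After rounding, the table was tested with edgeR 4.0.16 (R 4.3.3): filterByExpr (minimum count 10, minimum total 15), TMM scaling, and the quasi-likelihood F-test on all 6 libraries with Benjamini-Hochberg adjustment over 12720 genes and a threshold of 0.05. Each SE is the size of the log2 fold change divided by the root of its F statistic. Values after ± are SE for fold changes and SD for levels. Log2 CPM used a prior count of 2. Lengths were those of the longest basic coding transcript, chosen after a shorter reference transcript gave an implausible length for Eif4g2. Alternatives were RLE scaling, TMM without ribosomal protein genes, no filter, DESeq2 1.42.0, limma 3.58.1 voom, the replicate number as a block, and each library left out. The fit was also run on simulated counts with known changes, and the outcome of that run is not reported here.

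Members and lists were chosen with earlier results of these data known. The rule for naming gave full values for every member past the threshold, for the most abundant member and that with the lowest p in complexes without one, for paralogue pairs, and for at most 5 called genes of each list. Other members were also named. Gcn1 of the elongation partners was not matched, and no protein sequence was used.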

Additional observations from a re-analysis of the deposited data

How the results depend on the processing

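The count of lower members was 13 with RLE scaling, TMM without ribosomal protein genes and limma voom, and 12 without the filter, with DESeq2 and with the replicate block, while 2 members were higher under each of these 6 alternatives. With 1 library left out, 6 to 10 members were lower and 0 to 2 were higher, and over all genes 233 to 447 were lower and 229 to 503 were higher. The lowest count of each came without control library 2, where 0 members were higher. These runs have fewer libraries. None of the 15 members past the threshold changed direction in any alternative. Their groups did not overlap, so leaving out 1 library could hardly reverse them, and this is no check of the calls. Among the members without a call, 20 changed sign in at least 1 run. Only Eif3j2 did so outside the leave-one-out runs, with limma voom (-0.015). Over the 6 leave-one-out runs the log2 fold change ranged from -0.047 to 0.25 for Eef1akmt1, -0.093 to 0.041 for Eef2kmt, -0.20 to 0.023 for Eif1a and -0.21 to 0.033 for Eif1b. It ranged from -0.035 to 0.048 for Eif2ak1, -0.29 to 0.14 for Eif2ak4, -0.18 to 0.046 for Eif2b2, -0.086 to 0.098 for Eif2s1 and -0.032 to 0.035 for Eif2s3y. In eIF3 the range was -0.084 to 0.086 for Eif3b, -0.11 to 0.036 for Eif3g, -0.041 to 0.20 for Eif3j1 and -0.28 to 0.21 for Eif3j2. In eIF4 it was -0.042 to 0.15 for Eif4e, -0.030 to 0.070 for Eif4ebp2, -0.046 to 0.0088 for Eif4g1 and -0.048 to 0.078 for Eif4g3. It was -0.051 to 0.090 for Eif5, -0.092 to 0.015 for Eif5a and -0.047 to 0.13 for Eif5b. The cause of these changes was not tested. Same-numbered libraries of the 2 groups deviated together only weakly (correlations of 0.0189, 0.0261 and 0.0524 over 12720 genes). Each library correlated best with its own number. The deviations were taken from the mean of each group, so these correlations are not independent. They come from the data and not from the design, and they do not show a pairing. The fit with the replicate block gave 12 lower and 2 higher members and left out Eif3k (adjusted p = 0.0639). No scaling moved the median of all genes by more than 0.1 on the log2 scale. The scalings assume that most genes do not change, so a median near 0 is no check of them. CPM is a relative level, and the total mRNA was not measured. With 3 libraries a group and changes mostly under 2-fold, a member without a call is not shown to be unchanged.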
